A study of Homo sapiens with 8 samples.

Results

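The mRNAs of glucose uptake and glycolysis were measured through 10 genes in SK-N-MC and RD-ES, both lines from Ewing sarcoma (EwS), a tumor of bone and soft tissue. The genes were listed by symbol for their place in the pathway, with earlier results of these data known, namely the glucose carriers SLC2A1 and SLC2A3, the glycolytic enzymes HK1, HK2, PFKP, ALDOA, PGK1, PKM and LDHA, and the kinase PDK1. They are 10 of the 60332 genes in the deposited table, and all 10 reached the mean of 1 FPKM over the libraries that 15175 tested genes had. The study silenced the enhancer of LOXHD1, a gene expressed in EwS cells, and sequenced polyadenylated RNA from 8 libraries, with 2 control and 2 eKD2 libraries per line. Cells called eKD2 were infected with a lentivirus for dCas9-KRAB, a Cas9 that does not cut and carries a repressor domain, with a guide RNA aimed beside the GGAA repeat of that enhancer. The controls received the same virus without a guide per the labels, while the paper speaks of parental cells. The labels give a multiplicity of infection of 10, puromycin at 1 μg/ml for 3 days and use within 5 passages, and the resulting cells were polyclonal pools grown in RPMI-1640 medium. All 8 libraries came from regular culture, with no hypoxia treatment named in their labels.

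Cells take up glucose through carriers of the SLC2A family and trap it inside as glucose 6-phosphate by hexokinases. Phosphofructokinase then commits the sugar to glycolysis, aldolase splits it, phosphoglycerate kinase and pyruvate kinase make ATP, and lactate dehydrogenase regenerates NAD+ by turning pyruvate into lactate. Pyruvate dehydrogenase kinases inhibit pyruvate dehydrogenase in the mitochondria. Many of these genes carry binding sites of hypoxia-inducible factor 1 (HIF1) and MYC and are raised in tumors that live on glycolysis.

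LOXHD1, the gene whose enhancer was silenced, fell in both lines. Its RD-ES libraries held 21.4 and 21.2 FPKM without the guide versus 1.03 and 1.02 FPKM with it (log2 fold change -3.46, limma adjusted p = 1.1e-04). Its SK-N-MC libraries held 159 and 169 FPKM versus 11.0 and 11.9 FPKM (log2 fold change -3.73, limma adjusted p = 3.7e-05). The r of replicate pairs over genes, which are no replicates of each other, was 0.937 to 0.945. The number of reads is not given in the table, and the spacing of low values put the depths at 0.578 to 2.32 times that of the first RD-ES control library. The 10 Ewing sarcoma markers, LOXHD1 among them, summed to 1206 to 1529 FPKM in RD-ES and 910.4 to 1189 FPKM in SK-N-MC. Of the markers of other cells, the 6 fibroblast genes summed to 10.7 to 15.4 FPKM in RD-ES and 358 to 383 FPKM in SK-N-MC, and the 5 immune genes to 0.58 to 1.62 and 20.1 to 22.9 FPKM. PTPRC, the leukocyte surface phosphatase CD45, made up nearly all of the immune sum in SK-N-MC and was at 0 to 0.017 FPKM in RD-ES. The fibroblast and immune sums moved with the line, and their part in the differences between the lines given here was not tested. The 6 epithelial genes, mostly KRT18, a keratin of simple epithelia, summed to 38.9 to 53.3 FPKM in RD-ES and 40.2 to 60.5 FPKM in SK-N-MC. The 53.3 FPKM was that of RD-ES eKD2 replicate 1, the library at the depth ratio of 0.578. There KRT8 and CDH1 were at 8.2 and 3.50 FPKM, against at most 1.38 and 0.16 FPKM in the other RD-ES libraries. Of the 4 endothelial genes, PECAM1 was absent from the deposited data, and the others summed to 0.892 FPKM or less in every library.

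Windows of 250 bases before the RefSeq transcript starts (GRCh38.p14) are shown for PGK1, the 1 gene of the group that changed past the adjusted threshold under eKD2, and for LDHA and PKM, which had the next smallest p-values in SK-N-MC. Capitals mark ACGTG and GCGTG, the core that HIF1 binds, on both strands, and CACGTG, which contains the core on both strands and is also the E-box bound by MYC, was counted as 1 match.
PGK1, plus strand, chrX:78103998-78104247: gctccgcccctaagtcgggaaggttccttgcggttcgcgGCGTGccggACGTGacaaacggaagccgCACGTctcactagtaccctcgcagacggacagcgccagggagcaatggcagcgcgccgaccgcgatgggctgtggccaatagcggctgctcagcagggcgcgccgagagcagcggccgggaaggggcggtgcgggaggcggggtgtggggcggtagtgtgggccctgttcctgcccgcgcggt
LDHA, plus strand, chr11:18394313-18394562: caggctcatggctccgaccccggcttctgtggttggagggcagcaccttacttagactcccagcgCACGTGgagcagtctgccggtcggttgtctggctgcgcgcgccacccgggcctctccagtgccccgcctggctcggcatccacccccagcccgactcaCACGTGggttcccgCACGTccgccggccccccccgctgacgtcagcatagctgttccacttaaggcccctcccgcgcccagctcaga
PKM, minus strand, chr15:72231191-72231440: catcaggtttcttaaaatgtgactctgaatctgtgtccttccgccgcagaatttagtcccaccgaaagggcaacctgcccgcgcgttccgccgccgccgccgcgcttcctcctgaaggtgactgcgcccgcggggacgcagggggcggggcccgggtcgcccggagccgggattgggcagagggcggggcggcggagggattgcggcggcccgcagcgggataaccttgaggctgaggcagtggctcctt
PGK1 had 3 matches, the LDHA window 3, of which 2 were CACGTG, and PKM none. LDHA has a second start, whose window held 1 match. Of the 9 genes with a window in the table (SLC2A3 had no entry), 7 had a match in at least 1 window, a share of 77.8%, while 47.4% of all 27305 genes with a window had one. Genes differ in their number of starts, and counted per window the shares were 52.2% of 23 windows and 43.2% of 35116. A match of these letters is a description of the window and not a measured binding site.

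The 10 genes spanned more than 2 orders of magnitude in FPKM, which is normalized to transcript length and so can be compared between genes. ALDOA, PGK1, PKM and LDHA are 4 of the enzymes from the aldolase step to lactate. They stood between the 98.9th and the 99.7th percentile of tested genes in each of the 4 groups. In RD-ES control the order of mean levels was PGK1, PKM, ALDOA, LDHA, PFKP, HK1, PDK1, HK2, SLC2A1 and SLC2A3, and the libraries of neighbours in this order overlapped only for HK2 and SLC2A1. In SK-N-MC control the order was ALDOA, LDHA, PGK1, PKM, PFKP, PDK1, HK2, SLC2A1, SLC2A3 and HK1, with overlap between LDHA and PGK1 and between PDK1 and HK2. HK1 thus stood sixth in RD-ES and last in SK-N-MC. The plot of levels by library shows these orders.

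**Figure D1:**
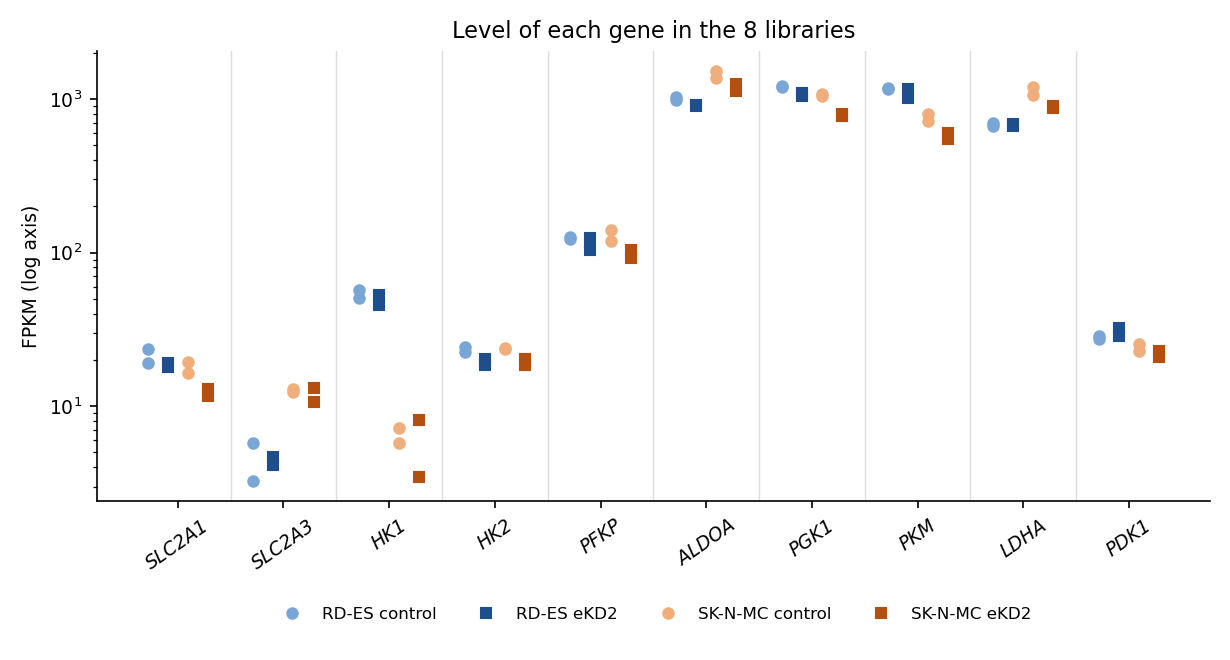
FPKM of the 10 genes (log axis) in each of the 8 libraries, with circles for control and squares for eKD2, blue for RD-ES and orange for SK-N-MC, 2 points a group. HK1 sat between 45.8 and 57.1 FPKM in the 4 RD-ES libraries and between 3.45 and 8.16 FPKM in the 4 SK-N-MC libraries. ALDOA, PGK1, PKM and LDHA stood far above the carriers and hexokinases in both lines.

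The controls of both lines were compared first, since the starting levels differ. Of the 10 genes, 3 were higher and 3 lower in SK-N-MC than in RD-ES with a limma adjusted p under 0.05, where 57.8% of all tested genes passed, 31.4% of them all as higher and 26.4% as lower. The lines differ widely, and 6 of 10 was close to that background. Of the 10, 5 had a log2 difference below 0, as had 45.9% of all genes. Scaling each library to the same median moved the median log2 difference of all genes from 0.06 to -0.04, and values near 0 in this contrast depend on it.

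The balance of the glucose carriers differed between the lines. SLC2A3, the high-affinity carrier known from neurons, was at 3.26 and 5.77 FPKM in RD-ES control and at 12.9 and 12.5 FPKM in SK-N-MC control, with no overlap. The log2 difference was 1.35 (SE 0.227, limma adjusted p = 0.0032), and the ratio of means was 2.80. SLC2A1, the widespread basal carrier, was at 19.2 and 23.6 FPKM in RD-ES and 16.5 and 19.3 FPKM in SK-N-MC, and the libraries overlapped (log2 difference -0.24, limma adjusted p = 0.16). SLC2A1 made up 82.9% of the FPKM of this pair in RD-ES control and 58.5% in SK-N-MC control. SLC2A14, a near copy of SLC2A3, was at 0.099 FPKM or less in every library, while the pseudogene SLC2A3P1 was at 5.6 to 11.8 FPKM. How the authors' counting split any shared reads is not known, and its part in the level of SLC2A3 was not tested.

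The hexokinases gave the largest difference of the group. HK1, the constitutive hexokinase, was at 50.8 and 57.1 FPKM in RD-ES control and at 5.80 and 7.18 FPKM in SK-N-MC control, 8.31-fold lower by the means. The log2 difference was -2.88 (95% interval -3.67 to -2.09, limma adjusted p = 6.4e-04). HK2, the inducible form of muscle and tumors, was nearly level between the lines, at 24.4 and 22.4 FPKM in RD-ES and 23.7 and 23.6 FPKM in SK-N-MC (log2 difference 0.02, 95% interval -0.19 to 0.23, limma adjusted p = 0.89). The summed FPKM of the 5 hexokinase genes was 77.6 in RD-ES control and 30.9 in SK-N-MC control. HK1 thus held 69.5% of it in RD-ES, and HK2 held 76.6% in SK-N-MC.

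Of the later enzymes, LDHA and ALDOA were higher and PKM and PGK1 lower in SK-N-MC. LDHA, the lactate dehydrogenase subunit that favors lactate formation, was at 669 and 701 FPKM in RD-ES control and 1065 and 1190 FPKM in SK-N-MC control (log2 difference 0.72, SE 0.0651, limma adjusted p = 2.8e-04). ALDOA, the main aldolase outside the liver, was at 978 and 1035 FPKM and at 1363 and 1513 FPKM (log2 difference 0.51, limma adjusted p = 0.0019). None of these libraries overlapped between the lines. PKM, which encodes pyruvate kinase M1 and M2 and is counted here as 1 gene over both splice forms, was at 1185 and 1164 FPKM in RD-ES and 719 and 801 FPKM in SK-N-MC (log2 difference -0.63, limma adjusted p = 0.0015). PGK1, the first ATP-making enzyme of the pathway, was at 1207 and 1191 FPKM against 1083 and 1046 FPKM (log2 difference -0.17, limma adjusted p = 0.021), a call that was lost without any 1 of the 4 control libraries (limma adjusted p from 0.056 to 0.11). PFKP, the platelet form of phosphofructokinase, and PDK1, which inhibits pyruvate dehydrogenase, did not pass the threshold, with log2 differences of 0.05 and -0.21 (limma adjusted p = 0.75 and 0.11). After scaling to the same median, SLC2A1 and PDK1 passed as lower in the SK-N-MC line (limma adjusted p = 0.037 and 0.022), and HK2 and PFKP turned to -0.13 and -0.10.

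In SK-N-MC, all 10 genes had lower fitted levels in eKD2 than in control, and PGK1 was the 1 that passed the adjusted threshold. A value below 0 was found for 51.1% of all genes. The median log2 fold change of the 10 was -0.31, against -0.0049 over all 15175 genes. At an unadjusted p under 0.05, 7 of the 10 were lower and none higher, where 7.29% of all genes were lower and 5.71% higher. For the same 7 genes, namely SLC2A1, HK2, PFKP, ALDOA, PGK1, PKM and LDHA, both eKD2 libraries lay below both controls, where this held for 25.1% of all genes and the reverse for 22.2%. The adjusted threshold called 0.323% of all genes (49), so 1 of 10 stands beside a low background. The summed FPKM of the 10 was 4604 ± 245.1 in control and 3604 ± 180.2 in eKD2 (SD, n = 2 each), 21.7% lower. Leaving out 1 library, the count of 7 fell to 3 without SK-N-MC control replicate 2 and to 4 without SK-N-MC eKD2 replicate 1. The 9 Ewing sarcoma markers other than LOXHD1 summed to 944 and 1020 FPKM in control versus 899 and 979 FPKM in eKD2, which overlapped. The epithelial markers, whose part in this was not tested, summed to 56.7 and 60.5 FPKM in control versus 42 and 40.2 FPKM in eKD2, with KRT18 at 50.4 and 54.4 FPKM versus 36.8 and 35.2 FPKM (log2 fold change -0.53, limma adjusted p = 0.093). In bulk RNA, fewer cells with a transcript and less of it per cell cannot be told apart.

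PGK1 was at 1083 and 1046 FPKM in SK-N-MC control and at 769 and 797 FPKM in eKD2. The eKD2 libraries lay far below the controls, and both pairs were tight. PGK1 fell by 26.4%, from a mean of 1064 ± 26.4 to 783 ± 19.8 FPKM (SD, 2 libraries each), and its log2 fold change was -0.44 (SE 0.0470, 95% interval -0.56 to -0.33, limma adjusted p = 0.034). PGK1 ranked 34 of the 15175 genes by p-value. The call was lost when any 1 of the 8 libraries was left out (limma adjusted p from 0.085 to 0.22), while the log2 fold change stayed between -0.47 and -0.42. It was also lost without a filter on low values, without the trend and with each line fitted alone (limma adjusted p = 0.085, 0.16 and 0.25). In the GENCODE annotation used here for positions, the gene (ENSG00000102144, plus strand) spans GRCh37 chrX:77166236-77384792. There it shares 97 of its 5437 exon bases with ATP7A, which was at a mean of 9.40 FPKM. It also shares 97 with the pseudogene AL356235.1, at a mean of 3.39 FPKM. The authors' FPKM values place PGK1 at the shorter span chrX:77320685-77384793. Whether the shared bases entered these FPKM values was not tested.

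LDHA, at the last step, was at 1065 and 1190 FPKM in SK-N-MC control and at 876 and 904 FPKM in eKD2, with no overlap. LDHA was thus 21.1% lower (log2 fold change -0.34, SE 0.0651, limma adjusted p = 0.16). The LDHA pseudogene LDHAP4 was at 14.5 to 28.3 FPKM across the libraries, a small fraction of the gene. PKM was at 719 and 801 FPKM in control versus 544 and 596 FPKM in eKD2, 24.99% lower (log2 fold change -0.41, limma adjusted p = 0.17). ALDOA was at 1363 and 1513 FPKM in control versus 1127 and 1257 FPKM in eKD2, 17.1% lower (log2 fold change -0.27, limma adjusted p = 0.25). These 3 enzymes kept their order, and each had both eKD2 libraries below both controls.

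At the entry of the pathway, SLC2A1 had the lowest log2 fold change of the group. It was at 16.5 and 19.3 FPKM in SK-N-MC control and at 12.9 and 11.7 FPKM in eKD2, 31.2% lower (log2 fold change -0.50, SE 0.130, limma adjusted p = 0.22). SLC2A3 was at 12.9 and 12.5 FPKM in control versus 10.7 and 13.2 FPKM in eKD2, which overlapped (log2 fold change -0.08, 95% interval -0.64 to 0.47). In eKD2 both carriers were thus at about 12 FPKM, with overlapping libraries. HK2 was at 23.7 and 23.6 FPKM in control versus 18.6 and 20.2 FPKM in eKD2, with no overlap (log2 fold change -0.27, limma adjusted p = 0.28). HK1 was at 5.80 and 7.18 FPKM in control versus 3.45 and 8.16 FPKM in eKD2, a spread too wide to show a difference of this size (95% interval of the log2 fold change -1.01 to 0.57).

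PFKP, at the committing step, was at 119 and 139 FPKM in control versus 91.7 and 104 FPKM in eKD2, 24.3% lower (log2 fold change -0.40, limma adjusted p = 0.27). PDK1, at the branch to the mitochondria, was at 22.9 and 25.3 FPKM in control versus 23.02 and 20.8 FPKM in eKD2. The PDK1 libraries overlapped (log2 fold change -0.13, 95% interval -0.37 to 0.11, limma adjusted p = 0.65). The 3 genes whose groups overlapped were SLC2A3, HK1 and PDK1.

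In RD-ES, none of the 10 genes passed the adjusted threshold, where 0.343% of all genes (52) did. By limma at an unadjusted p under 0.05, HK2 and PGK1 were lower and none higher, where 3.79% of all genes were lower and 8.49% higher. This count of 2 went to 0 without RD-ES control replicate 1, without RD-ES eKD2 replicate 1 and with each line fitted alone. The median log2 fold change of the 10 was -0.12, against 0.03 over all genes, and 8 of the 10 were below 0, as were 42% of all genes. Both eKD2 libraries lay below both controls for SLC2A1, HK2, ALDOA, PGK1 and PKM, where 15.1% of all genes did so and 24.2% lay above. Among all genes with an unadjusted p below 0.05, those higher in eKD2 were 69.1% as deposited, 41.2% after median scaling and 53.7% after quantile normalization, while the median of the 10 genes was -0.20 and -0.12 after these scalings. The summed FPKM was 4321 ± 42.7 in control and 3960 ± 143 in eKD2 (SD, n = 2 each), 8.36% lower. That of the 9 Ewing sarcoma markers other than LOXHD1 was at 1388 and 1508 FPKM versus 1205 and 1367 FPKM, with no overlap. CCND1 and CD99 made up most of this marker sum, and CCND1 overlapped, at 580 and 718 FPKM versus 522 and 631 FPKM. Of the 10 markers with LOXHD1, 7 had a log2 fold change below 0 and 3 above.

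PGK1 was at 1207 and 1191 FPKM in RD-ES control and 1037 and 1091 FPKM in eKD2, 11.3% lower (log2 fold change -0.17, 95% interval -0.29 to -0.06, limma adjusted p = 0.25). HK2 was at 24.4 and 22.4 FPKM in control versus 18.6 and 20.1 FPKM in eKD2, 17.2% lower (log2 fold change -0.26, limma adjusted p = 0.32). Neither gene overlapped between the groups. ALDOA was at 978 and 1035 FPKM against 894 and 909 FPKM in eKD2 (log2 fold change -0.16, adjusted p = 0.47), and PKM at 1185 and 1164 FPKM against 1014 and 1154 FPKM (log2 fold change -0.12, adjusted p = 0.62). SLC2A1 was at 19.2 and 23.6 FPKM in control versus 17.9 and 18.98 FPKM in eKD2 (log2 fold change -0.20, adjusted p = 0.58). For these 3 genes the groups did not overlap, but the 95% intervals of the log2 fold changes included 0.

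The 5 genes whose RD-ES libraries overlapped were SLC2A3, HK1, PFKP, LDHA and PDK1. LDHA was nearly level, at 669 and 701 FPKM in control versus 686 and 662 FPKM in eKD2 (log2 fold change -0.02, 95% interval -0.18 to 0.13). PDK1 was at 27.2 and 28.8 FPKM in control versus 28.7 and 32.1 FPKM in eKD2 (log2 fold change 0.11, 95% interval -0.13 to 0.35). PFKP was at 127 and 122 FPKM and at 105 and 125 FPKM, with 1 eKD2 library inside the range of the controls. HK1 was at 50.8 and 57.1 FPKM and at 53.1 and 45.8 FPKM, and SLC2A3 at 3.26 and 5.77 FPKM and at 4.70 and 4.14 FPKM. The plot of eKD2 changes shows that the RD-ES intervals of all genes but HK2 and PGK1 include 0.

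**Figure D2:**
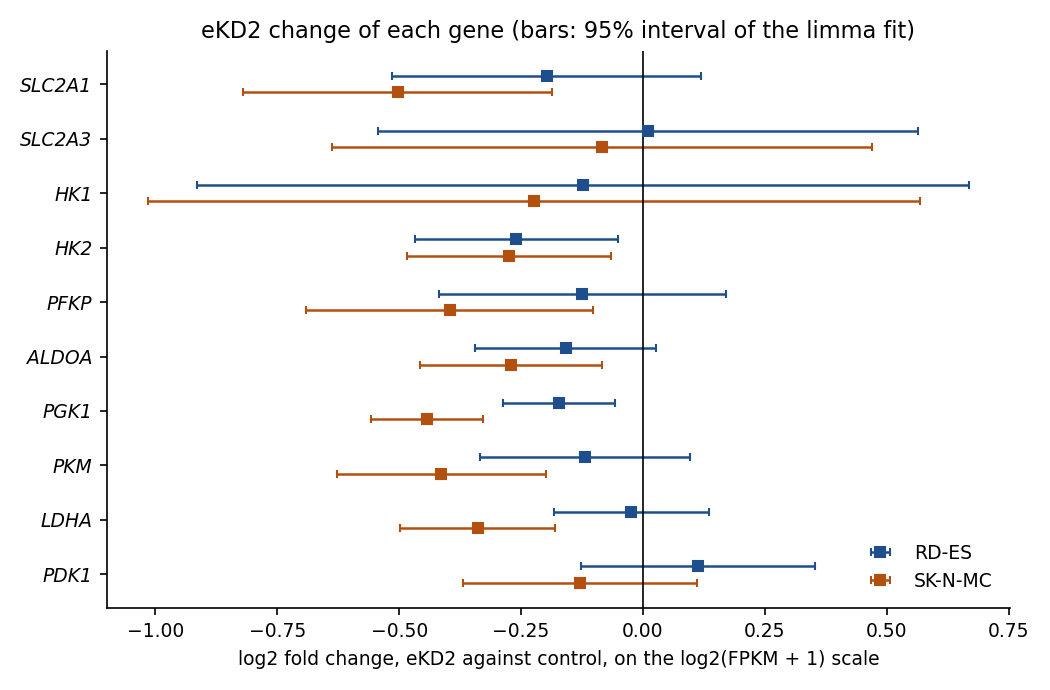
Log2 fold change of eKD2 against control for the 10 genes on the log2(FPKM + 1) scale, blue for RD-ES and orange for SK-N-MC, with 95% intervals of the limma fit. The SK-N-MC values lay between -0.50 and -0.08 and the RD-ES values between -0.26 and 0.11, and the PGK1 interval in SK-N-MC ran from -0.56 to -0.33.

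The difference between the lines was tested directly, with the RD-ES change subtracted from the SK-N-MC change. All 10 genes had a value below 0, as had 56.3% of all genes, and the median was -0.26, against -0.05 over all genes. After scaling to the same median the value of HK2 turned to 0.07 and the median of the group to -0.17, and after quantile normalization HK2 and SLC2A3 were at 0.05 and 0.01. None of the 10 passed the adjusted threshold, where 0.244% of all genes (37) did. At an unadjusted p under 0.05 the 2 genes were PGK1 (log2 difference -0.27, limma adjusted p = 0.22) and LDHA (-0.32, limma adjusted p = 0.26), where 9.16% of all genes were lower and 4.38% higher. This count of 2 went to 1 without RD-ES control replicate 1 or SK-N-MC eKD2 replicate 1 and reached 4 with quantile normalization. PKM had a log2 difference of -0.29 (95% interval -0.60 to 0.01), and HK2 of -0.02 (95% interval -0.31 to 0.28). Among all genes with an unadjusted p below 0.05 for this difference of changes, those with a value above 0 were 32.4% as deposited, 56.3% after median scaling and 43.4% after quantile normalization. A larger change in SK-N-MC than in RD-ES was therefore not shown for any single gene by this test.

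Within enzyme families, the share of each isozyme was taken per library. LDHA made up 37.6% and 39.2% of the summed FPKM of LDHA and LDHB in SK-N-MC control and 31.1% and 32.2% in eKD2, with no overlap. LDHB, the subunit of heart and of oxidative tissues, was at 1767 and 1849 FPKM in SK-N-MC control and at 1941 and 1907 FPKM in eKD2 (log2 fold change 0.09, limma adjusted p = 0.59). In RD-ES the LDHA share was 23.8% and 26.7% in control and 25.2% and 23.7% in eKD2. In both lines LDHB was thus the more abundant transcript.

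Among the phosphofructokinases, PFKP held 40.5% of the family in RD-ES control and 36.8% in SK-N-MC control, and PFKM, the muscle form, held 43.3% and 51.7%. PFKP held 36.5% in RD-ES eKD2 and 34.7% in SK-N-MC eKD2. In each line both eKD2 libraries had a smaller PFKP share than both controls. PDK1 held 57.8% of the FPKM of the 4 PDK genes in RD-ES control and 46.2% in SK-N-MC control, where PDK2 held 37.4%. The aldolases were almost all ALDOA, at 99.0% to 99.7% in every library. HK1 kept its share of the hexokinases under eKD2 within the spread of the libraries (67.5% to 74.0% in RD-ES, 15.4% to 28.5% in SK-N-MC). The plot of isozyme shares gives these values by library.

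**Figure D3:**
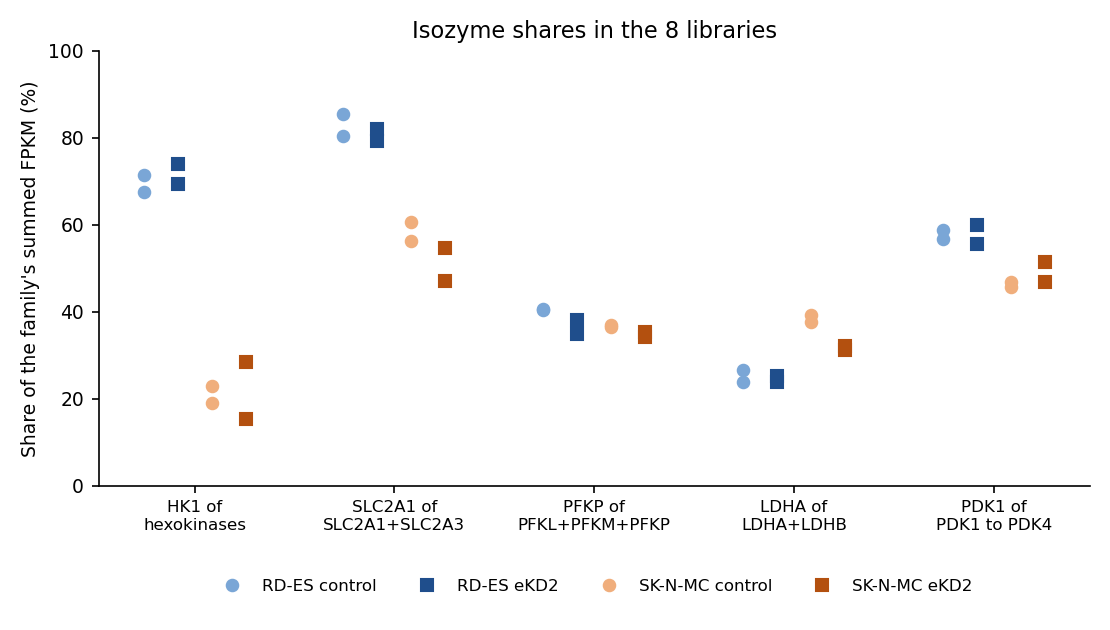
Share of each gene in the summed FPKM of its family (percent) in the 8 libraries, circles for control and squares for eKD2, 2 points a group. HK1 held 67.5% to 74.0% of hexokinase FPKM in RD-ES against 15.4% to 28.5% in SK-N-MC, and LDHA held 37.6% and 39.2% in SK-N-MC control against 31.1% and 32.2% in eKD2.

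The remaining genes of glycolysis had a median closer to 0 in SK-N-MC than the group had, a difference that was not tested. Of 23 other glycolysis enzymes, 12 were tested, none passed the adjusted threshold in either line, and in each line 2 were lower and none higher by limma at an unadjusted p below 0.05. The median log2 fold change of the 12 was -0.10 in SK-N-MC and 0.01 in RD-ES. GAPDH, the enzyme just before PGK1, was at 3894 and 4092 FPKM in SK-N-MC control and 3818 and 4321 FPKM in eKD2, which overlapped. ENO1, the enolase between PGK1 and PKM, was at 1431 and 1530 FPKM in control versus 1338 and 1390 FPKM in eKD2 (log2 fold change -0.12, limma adjusted p = 0.43). GAPDH and ENO1 are named for their place in the pathway and were chosen after their values were seen. In SK-N-MC, ALDOC, the brain aldolase, was at 12.2 and 15.7 FPKM in control versus 6.09 and 6.47 FPKM in eKD2 (log2 fold change -1.03, limma adjusted p = 0.079), and PFKM was the other lower gene (log2 fold change -0.29, limma adjusted p = 0.33). The 2 lower RD-ES genes were PGAM1 (log2 fold change -0.36, limma adjusted p = 0.23) and TPI1 (log2 fold change -0.19, limma adjusted p = 0.30).

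Other carriers and branch pathways held few changes under eKD2. Of 13 other glucose carriers, 4 were tested and none passed in either line, even at an unadjusted p under 0.05 by limma. None of the 8 tested genes of the pentose phosphate branch passed the adjusted threshold, and at an unadjusted p under 0.05 only TALDO1 and RPE in SK-N-MC were lower by limma (log2 fold change -0.30 and -0.19). Of 15 tested genes that handle pyruvate and lactate, none passed the adjusted threshold by limma, while an unadjusted p below 0.05 was found for 2 higher genes in RD-ES and for 4 lower genes and 1 higher gene in SK-N-MC. PC and PDHX were among the lower genes of SK-N-MC (log2 fold change -0.77 and -0.43, limma adjusted p = 0.34 and 0.37). PDP1, the phosphatase that reverses the action of PDK1, was at 3.25 and 3.80 FPKM in RD-ES control and 5.79 and 5.56 FPKM in eKD2 (log2 fold change 0.56, limma adjusted p = 0.15). PDP1 of SK-N-MC was at 21.6 and 23.7 FPKM in control versus 16.4 and 17.6 FPKM in eKD2 (log2 fold change -0.39, limma adjusted p = 0.22). PDP1 thus lay on opposite sides of its controls in the lines, with a difference that did not pass the adjusted threshold (log2 difference -0.96, limma adjusted p = 0.10). Of 12 tested genes of glycogen and gluconeogenesis, PCK2, the mitochondrial enzyme that makes phosphoenolpyruvate, rose in RD-ES from 3.33 and 1.71 FPKM to 18.8 and 13.8 FPKM (log2 fold change 2.32, limma adjusted p = 0.028). The PCK2 call held without RD-ES control replicate 1 and was lost without any other single library (limma adjusted p from 0.054 to 0.15). In SK-N-MC none of the 12 passed the adjusted threshold by limma, while PYGB and PYGL, the brain and liver glycogen phosphorylases, were higher at an unadjusted p under 0.05 (log2 fold change 0.50 and 0.40), and UGP2, which makes UDP-glucose for glycogen, was lower (-0.26).

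Among regulators of glycolytic flux, changes past the threshold were found in RD-ES. Of the 7 tested, TXNIP and ARRDC4 rose in RD-ES eKD2, and none passed the threshold in SK-N-MC (limma, also at an unadjusted p under 0.05). TXNIP, an arrestin-like protein that lowers glucose uptake by removing carriers from the cell surface, went from 42.3 and 37.3 FPKM in RD-ES control to 134 and 138 FPKM in eKD2 (log2 fold change 1.75, SE 0.0957, limma adjusted p = 0.0021). Its relative ARRDC4 went from 2.34 and 2.46 FPKM to 8.98 and 7.68 FPKM (log2 fold change 1.45, limma adjusted p = 0.0079). The ARRDC4 call was lost without any 1 of the 4 control libraries of either line (limma adjusted p from 0.058 to 0.063). In SK-N-MC, TXNIP was at 25.1 and 28.6 FPKM in control versus 28.5 and 29.7 FPKM in eKD2, which overlapped. The mRNAs of SLC2A1 and SLC2A3, the carriers named above, did not pass the threshold in RD-ES.

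**Figure D4:**
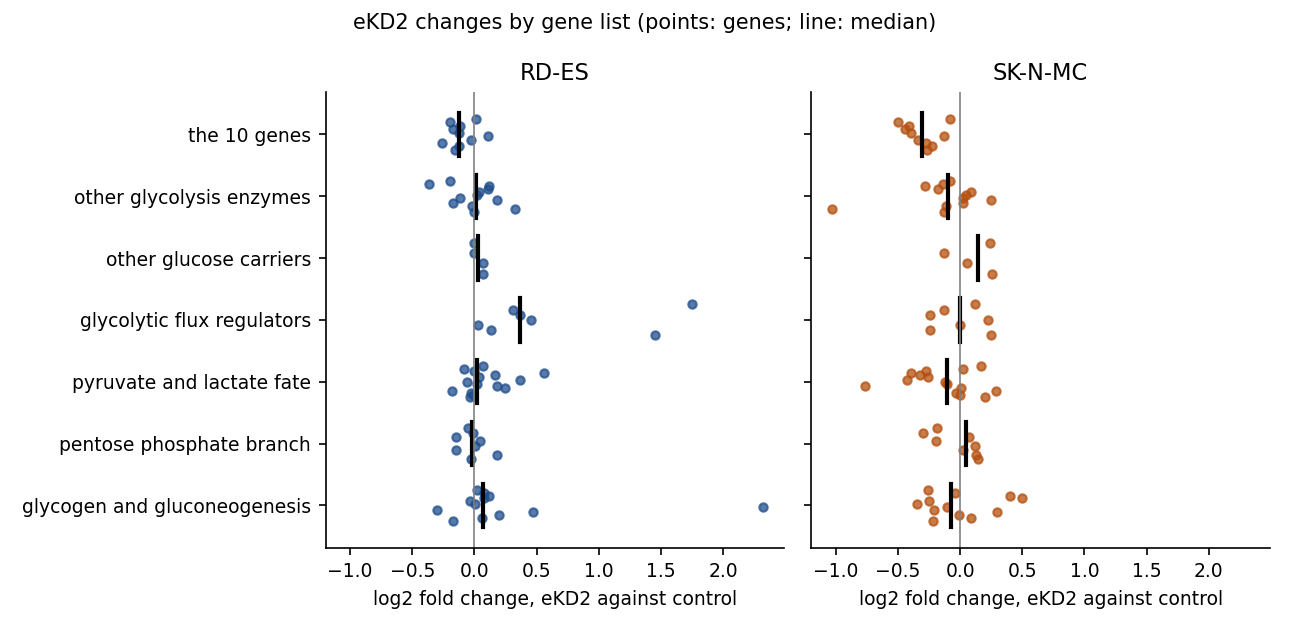
Log2 fold change of eKD2 against control for the tested genes of the 10 and of 6 other lists (points), namely enzymes, carriers, flux regulators and branch pathways, with the median of each list (black line), RD-ES on the left and SK-N-MC on the right. The 10 genes had a median of -0.12 on the left and -0.31 on the right, and the 3 points above 1 among these lists in RD-ES are TXNIP, ARRDC4 and PCK2.

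Of 13 tested regulators of glycolysis genes, none passed the adjusted threshold in either line, while an unadjusted p below 0.05 by limma was found for 4 lower genes and 1 higher gene in SK-N-MC and for 1 of each in RD-ES. HIF1A, which encodes the oxygen-regulated subunit of HIF1, was at 109 and 104 FPKM in SK-N-MC control and 91.4 and 99.3 FPKM in eKD2 (log2 fold change -0.16, limma adjusted p = 0.57) and had a log2 fold change of -8.3e-05 in RD-ES (HIF1A was chosen after its values were seen). MYC was at 169 and 198 FPKM in SK-N-MC control and 135 and 145 FPKM in eKD2 (log2 fold change -0.38, limma adjusted p = 0.36). MLXIPL, which encodes the glucose-responsive factor ChREBP, had the largest log2 fold change of these 5 genes and lay on the other side, at 2.65 and 2.62 FPKM in SK-N-MC control and 5.59 and 5.55 FPKM in eKD2 (log2 fold change 0.85, limma adjusted p = 0.20). The MYC libraries of SK-N-MC did not overlap, and those of RD-ES did, at 37.0 and 47.4 FPKM in control versus 36.7 and 41.8 FPKM in eKD2. Of 14 tested HIF targets outside glycolysis, none passed the adjusted threshold in SK-N-MC by limma, where 3 were lower and 1 higher with an unadjusted p below 0.05, and the median log2 fold change was -0.12. BNIP3, a mitophagy receptor, was at 36.0 and 36.3 FPKM in SK-N-MC control and 20.8 and 23.2 FPKM in eKD2 (log2 fold change -0.69, limma adjusted p = 0.068). CA9 was at 8.03 and 6.15 FPKM in SK-N-MC control versus 3.49 and 4.47 FPKM in eKD2 (log2 fold change -0.70, limma adjusted p = 0.25). P4HA2, a collagen prolyl hydroxylase, was on the other side (log2 fold change 1.00, limma adjusted p = 0.14). In RD-ES, DDIT4, an inhibitor of mTORC1 signaling, rose from 4.42 and 4.26 FPKM to 20.4 and 21.1 FPKM (log2 fold change 2.03, limma adjusted p = 7.2e-04), and the median of the list was 0.05. At an unadjusted p under 0.05, 3 of the 14 were higher in RD-ES and none lower by limma. Beside DDIT4 these were NDRG1, a stress-induced gene (log2 fold change 1.06, limma adjusted p = 0.28), and KDM3A, a histone demethylase (log2 fold change 0.51, limma adjusted p = 0.089).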

How the data were processed

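RNA of 8 libraries (2 lines, control and eKD2, 2 replicates each) was sequenced as single-end reads. The authors aligned reads with STAR to hg19 (GRCh37) and deposited FPKM values per gene from cuffnorm (versions not given in the sources used here). FPKM is a read number divided by transcript length and library size, so depth enters only through the spread, and counting error cannot be given. The number of reads was not used here. Values were compared as log2(FPKM + 1) with limma 3.58.1 (R 4.3.3; lmFit, eBayes with trend) for the 15175 genes whose mean reached 1 FPKM, over 4 groups in 1 fit, with Benjamini-Hochberg adjustment over all genes and a threshold of 0.05. Fold changes on this scale understate those of low genes. The fit was tested on simulated data. The paper calls the replicates biological, and no label names their cultures, so p-values may measure a technical spread. With 2 libraries a group, the smallest two-sided p of an exact permutation test is 0.333. The members and gene lists were chosen with earlier results of these data known. Beyond the 10 genes and LOXHD1, genes of a list could be named if they passed the adjusted threshold under eKD2 or in the difference. Those among the 3 largest at an unadjusted p under 0.05 could be named too, and not every such gene was. Depth ratios came from low values of single-transcript genes. Gene positions and exon overlaps were read from GENCODE 44 lifted to GRCh37, and promoter windows from RefSeq on GRCh38.p14, without converting coordinates. Alternatives were another pseudocount, filter, scaling, fit or block, and leaving out each library.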

Additional observations from a re-analysis of the deposited data

Results flagged for a closer look

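A pair of genes changed by different amounts in the lines, by the interaction term of the limma fit. With the RD-ES change subtracted from the SK-N-MC change, TXNIP had a log2 value of -1.635 (limma adjusted p = 0.013), and the call was lost without SK-N-MC eKD2 replicate 1 (limma adjusted p = 0.051). DDIT4 had a value of -2.395 (limma adjusted p = 0.0017), with 4.42 and 4.26 FPKM in control versus 20.4 and 21.1 FPKM in eKD2 for RD-ES, and 64.4 and 69.3 FPKM versus 48.5 and 54.8 FPKM for SK-N-MC. No group had enough libraries for a test of single outlying libraries.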

How the results depend on the processing

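Of the counts of genes that passed the adjusted threshold, that of SK-N-MC eKD2 went from 1 to 0 without a filter on low values, with each line fitted alone, without the trend, with the replicate block and without each library (0 to 0); PGK1 kept its log2 fold change, and its adjusted p with the replicate block was 0.057. Over all tested genes, same-numbered libraries did not deviate together (correlations of -0.02 to 0.06). For the 10 genes, however, the summed FPKM was lower in replicate 1 than in replicate 2 in each of the 4 groups. These sums were 4291 and 4351 in RD-ES control and 3859 and 4061 in RD-ES eKD2. In SK-N-MC they were 4431 and 4777 in control and 3477 and 3731 in eKD2. Whether the numbers mark a pairing for these genes was not tested. Leaving out 1 library, the median log2 fold change of the 10 genes ranged from -0.40 to -0.26 in SK-N-MC, from -0.19 to -0.085 in RD-ES, and for the difference from -0.30 to -0.17. Median scaling moved the median to -0.17 for the difference and to -0.22 between the lines. Signs turned only for values that were not past the threshold. In RD-ES, SLC2A3 turned to -0.047 with median scaling and -0.082 with quantile normalization, and LDHA to 0.049 with the latter. For the difference, HK2 turned to 0.066 and 0.052, and SLC2A3 to 0.011 with quantile normalization. Between the lines, HK2 turned to -0.13 and -0.069, and PFKP to -0.097 with median scaling. Leaving out 1 library, RD-ES values ranged from -0.32 to 0.34 for SLC2A3, -0.058 to 0.0096 for LDHA and -0.25 to 4.3e-05 for PFKP, SK-N-MC values from -0.23 to 0.057 for SLC2A3 and -0.74 to 0.30 for HK1, differences from -0.43 to 0.24 for SLC2A3, -0.076 to 0.045 for HK2 and -0.62 to 0.42 for HK1, and line values from -0.043 to 0.077 for HK2 and -0.059 to 0.16 for PFKP. With each line fitted alone, 1 RD-ES gene and 13 SK-N-MC genes were called in place of 52 and 49, and TXNIP, ARRDC4, PCK2, DDIT4 and LOXHD1 lost their call in RD-ES; without a filter 79 and 118 passed, with the replicate block 36 and 33 and without the trend 41 and 33. The TXNIP difference was lost with the replicate block (adjusted p = 0.053). The cause of these shifts was not tested, and fewer libraries leave fewer degrees of freedom. FPKM gives no reads, so counting error at low genes such as HK1 in SK-N-MC is unknown.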
